A study of Homo sapiens with 40 samples.

Results

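Heregulin (HRG) is the secreted form of neuregulin 1, a ligand of the ERBB family receptors ERBB3 and ERBB4. ERBB3 has little kinase activity of its own and signals as a partner of ERBB2 (HER2), the receptor that is amplified in the breast cancer line BT474 and that the antibody trastuzumab binds. Activated ERBB pairs feed the RAS to ERK and PI3K to AKT cascades. Within the first hour, such signals switch on immediate early genes, whose transcription needs no new protein synthesis: transcription factors of the EGR, FOS and JUN families, and inhibitors that later damp the same cascades.

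The response to 1 h of HRG in BT474R, the trastuzumab-resistant derivative of BT474 (HRG-BT474R below), is described across all genes of the count table. The libraries were taken by their labels, BT474R at 1 h with HRG or vehicle, 4 of the 40 RNA-seq libraries of the series. Earlier results of these data were known when the comparison was chosen. Per the study's methods, BT474R is a single clone obtained by growing BT474 in trastuzumab, so line and clone cannot be told apart. Cells of both lines were starved for 14 to 16 h in low-serum medium. They were then given HRG at 10 ng/mL, EGF (epidermal growth factor, the ligand of EGFR) at 50 ng/mL, or water as vehicle, in fresh starvation medium, while T0 cells were collected after starvation. Each group had 2 libraries (n = 2), and the study's methods say that treatments were done in duplicate. Neither these nor the labels say whether the duplicates were independent experiments, so p-values measure only the spread between these libraries, which may be technical.

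The 4 libraries held 24028440 to 33387936 counts, within the range of 16794594 to 33387936 counts of the 20 BT474R libraries. Levels are given as counts scaled to a library total of 1000000 (CPM) after TMM scaling, a correction for library composition, and the floor of 3 counts lay between 0.0899 and 0.125 CPM in these libraries. The 9 markers of luminal HER2-positive epithelium summed to 16000 and 16100 CPM in the vehicle libraries and to between 15700 and 16100 CPM with HRG. Of 5 fibroblast, 4 endothelial and 4 immune markers, 3, 1 and 3 stayed at or under 3 counts in each of the 4 libraries, and their summed levels with HRG (179 to 183, 19 and 1.03 to 1.62 CPM) were close to those with vehicle (170 to 192, 17.4 to 18 and 1.22 to 2.05 CPM). The matrix proteoglycan genes DCN and LUM and the T cell gene CD3E had no count.

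After 1 h of HRG, 41 of 24287 genes tested (0.169%) were differentially expressed at an adjusted p under 0.05, in the quasi-likelihood F test of edgeR (p adjusted by Benjamini and Hochberg's method), and each of them was higher with HRG. None (0%) was called lower. At an unadjusted p under 0.05, 385 genes were lower and 673 higher. With no change in any gene, a share of about 0.05 would pass that threshold. These counts alone therefore show no further change. DESeq2 called 49 genes higher and 1 lower. Of the 41, 37 carry a plain gene name and the other 4 are extra rows of IER3 (IER3_1, IER3_3, IER3_4 and IER3_5), which may split the reads of near-identical copies of that gene. Of the 37 genes, 26 belong to the gene lists used here, which range from EGR and AP-1 factors to FOXO and NF-kB targets. The lists were chosen with earlier results of these data known, so this number only describes which genes the text covers. The log2 fold changes of the 37 genes ran from 0.28 to 6.48 with a median of 0.76, against a median of 0.00436 over all genes tested. In 13 of the 37 the level at least doubled, which is a log2 fold change of 1 or more. In none of the 37 did the HRG and vehicle libraries overlap, which the choice of called genes largely fixes.

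**Figure D1:**
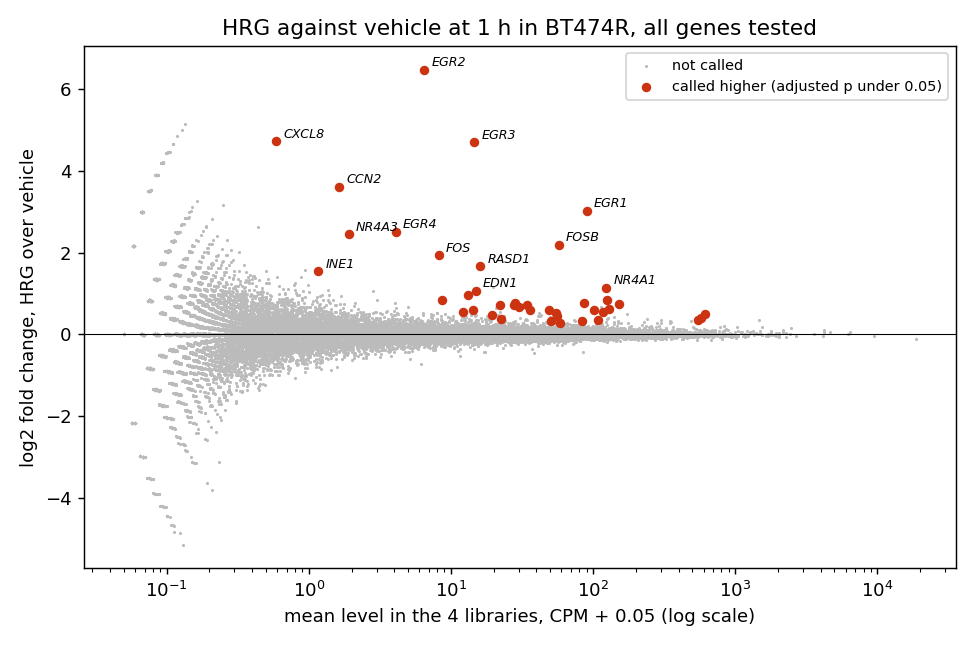
Each point is a gene tested in BT474R, with its mean level over the 2 vehicle and 2 HRG libraries at 1 h on a log axis (CPM plus 0.05) and its log2 fold change of HRG over vehicle on the other axis. The 41 called genes, in red, all lie above 0, from 0.28 to 6.48, while no gene called lower is seen among the grey points.

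The EGR genes, which encode zinc finger transcription factors, were among the genes with the largest changes. EGR2 was at 0.246 and 0.0597 CPM with vehicle (6 and 2 counts) and at 16.2 and 9.39 CPM with HRG (499 and 255 counts), a log2 fold change of 6.48 (SE 0.37, adjusted p = 6.23e-10). EGR3 stood at 0.902 and 1.19 CPM with vehicle and at 34.9 and 21.0 CPM with HRG, a log2 fold change of 4.71 (SE 0.29, adjusted p = 3.98e-09). EGR1 was at 22.0 and 17.7 CPM with vehicle against 185 and 137 CPM with HRG (8.11-fold; log2 3.03, SE 0.13, adjusted p = 6.55e-12). EGR4 went from 1.11 and 1.28 CPM to 8.18 and 5.59 CPM (log2 2.52, SE 0.27, adjusted p = 2.51e-05). For all 4 genes the first HRG library was the higher one, and both stood above the 2 vehicle libraries. The EGR corepressors NAB1 and NAB2 did not pass, with log2 values of 0.14 and 0.56 (adjusted p = 1 and 0.0628).

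Serum response factor, a transcription factor that acts with ERK-phosphorylated partners, binds the CArG box (CC, then 6 bases that are A or T, then GG), a known element of immediate early promoters. Among the called EGR, FOS, JUN, CCN and DUSP genes matched in the RefSeq promoter table, EGR1 and EGR2 were those with a CArG box in the 250 bases before a RefSeq transcription start (GRCh38.p14). Both are shown from base 250 to base 11 before the start, 5′ to 3′ on the gene's strand, with the CArG boxes in capitals. They were chosen because they hold a box, so its presence in them is no result. Boxes farther upstream or with a mismatch were not searched for, so the other called genes are not shown to lack the element. Of the called genes, EGR2 had the largest log2 fold change and EGR1 the smallest adjusted p. The EGR1 window, on the plus strand at chr5:138465229-138465468, holds 2 boxes, which begin 105 and 83 bases before the start. The EGR2 window, on the minus strand at chr10:62816377-62816616, belongs to 1 of 3 RefSeq starts of the gene and holds 1 box, 71 bases before the start.
EGR1: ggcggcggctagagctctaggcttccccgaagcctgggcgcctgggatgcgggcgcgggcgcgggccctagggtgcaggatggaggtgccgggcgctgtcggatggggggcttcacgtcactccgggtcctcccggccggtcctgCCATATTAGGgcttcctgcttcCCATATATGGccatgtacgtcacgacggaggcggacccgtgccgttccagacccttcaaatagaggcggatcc
EGR2: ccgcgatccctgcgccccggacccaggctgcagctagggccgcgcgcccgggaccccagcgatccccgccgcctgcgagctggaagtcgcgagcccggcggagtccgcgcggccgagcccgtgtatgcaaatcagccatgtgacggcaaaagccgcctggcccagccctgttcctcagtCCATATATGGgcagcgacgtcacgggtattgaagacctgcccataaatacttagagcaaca

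Of the 37 called genes, 29 matched the RefSeq promoter table. Within 250 bases before a start, on either strand, a CArG box was present in 3 of the 29 (10.3%; the third is NCOA7) and in 1.44% of all 27305 genes with a window. The cAMP response element core TGACG was present in 20 of 29 (69%) against 24.9% of all genes, and the full element TGACGTCA, which contains that core, in 3 (10.3%) against 2.03%. The TEAD motif GGAATG was found in 9 (31%) against 14.3%, and the SP1 motif GGGCGG in 20 (69%) against 46.2%. The EGR motif GCGNGGGCG, which can overlap the SP1 letters, was found in 4 (13.8%) against 10.1%, and the AP-1 motif TGANTCA in 1 (3.45%) against 8.06%. These shares are descriptions of letters, and genes with several starts had more windows to match. The 27305 genes were not limited to those tested here, nor matched to the called genes in type or level. The part of this in the shares was not tested. The called genes were also short: the 36 protein-coding ones spanned a median of 7.62 kb (quartiles 3.4 and 25 kb), against 30 kb (11.8 and 76.2 kb) for the 15263 protein-coding genes tested.

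Among the AP-1 and related leucine zipper factors, 4 of 10 tested rose and none was called lower, with a list median of 0.80. FOSB went from 16.4 and 24.4 CPM with vehicle to 110 and 78.6 CPM with HRG (log2 2.20, SE 0.16, adjusted p = 1.69e-08). FOS went from 3.69 and 3.13 CPM to 14.7 and 11.1 CPM (log2 1.94, SE 0.25, adjusted p = 0.000253). Both are partners of the JUN proteins in AP-1. JUNB rose from 87.9 and 92.5 CPM to 184 and 141 CPM (log2 0.85, adjusted p = 2.51e-05), and the small MAF factor MAFF from 20.7 and 20.9 CPM to 37.3 and 33.2 CPM (log2 0.76, adjusted p = 0.0127). JUN itself was at 118 and 131 CPM with vehicle and 163 and 147 CPM with HRG, and did not pass (log2 0.31, SE 0.08, adjusted p = 0.224). ATF3, a stress-induced factor, was at 10.5 and 13.7 CPM against 29.8 and 24.9 CPM and lay just above the threshold (log2 1.16, SE 0.25, adjusted p = 0.0624).

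In the list of NR4A receptors and IER genes, 5 of 7 rose, with a median of 0.73. The orphan nuclear receptors NR4A1 and NR4A2 rose from 73.8 and 81.0 CPM to 184 and 156 CPM (log2 1.14, adjusted p = 1.42e-05) and from 20.5 and 21.5 CPM to 37.9 and 31.7 CPM (log2 0.73, adjusted p = 4.30e-05). NR4A3 had few counts, at 0.656 and 0.507 CPM with vehicle and 3.38 and 2.91 CPM with HRG, yet passed (log2 2.45, SE 0.37, adjusted p = 0.00136). IER2 rose by 0.61 and the plain IER3 row by 0.85 on the log2 scale. The 4 called extra IER3 rows ran from 0.48 to 0.71, while another extra row, IER3_2, was at 0.42 without a call (adjusted p = 0.35). Summing the extra rows into the gene gave 0.60 (adjusted p = 8.28e-06). IER5 and IER5L were at 0.08 and 0.11 and did not pass.

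Several called genes encode secreted proteins. They were grouped here after their values were seen, and other such genes, among them THBS1 (log2 0.22, adjusted p = 0.98) and the ERBB ligands, were not called. CCN2 (CTGF), a matricellular protein and target of YAP and TEAD, had 3 and 11 counts with vehicle and 120 and 55 counts with HRG, that is 0.123 and 0.328 CPM against 3.90 and 2.03 CPM (log2 3.61, SE 0.43, adjusted p = 0.000179). Its relative CCN1 (CYR61) rose from 22.7 and 23.4 CPM to 42.1 and 31.7 CPM (log2 0.68, adjusted p = 0.00122). These were 2 calls among 8 tested genes of the CCN and YAP list, whose median was 0.15. The neutrophil chemokine CXCL8 had 2 and 0 counts with vehicle and 37 and 24 counts with HRG, so it was at least 9.81-fold higher, measured against 3 counts in each vehicle library (adjusted p = 0.00233). It was the only call among the 10 tested NF-kB inhibitors and targets. EDN1, which encodes endothelin-1, rose from 9.51 and 9.70 CPM to 23.0 and 17.4 CPM (log2 1.07, adjusted p = 0.000658), and the WNT antagonist DKK1 from 28.1 and 29.2 CPM to 49.7 and 37.6 CPM (log2 0.61, adjusted p = 0.0413).

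DUSP phosphatases, SPRY proteins and ERRFI1 are known feedback inhibitors of ERBB and ERK signaling. DUSP6, the phosphatase of ERK, went from 116 and 112 CPM to 188 and 197 CPM (log2 0.75, SE 0.10, adjusted p = 0.000386). DUSP10 and DUSP5 rose by 0.46 and 0.37, making 3 calls among 10 DUSP phosphatases with a median of 0.23. DUSP1, the classical early phosphatase, was at 40.7 and 44.6 CPM with vehicle and 54.4 and 49.7 CPM with HRG and did not pass (log2 0.29, SE 0.12, adjusted p = 1). SPRY4, an inhibitor of RAS signaling, rose from 65.2 and 61.3 CPM to 109 and 108 CPM (log2 0.78, adjusted p = 0.000110), while SPRY1 and SPRY2 were at 0.04 and 0.15 without a call. ERRFI1 (MIG6), which binds and inhibits EGFR family kinases, rose from 43.3 and 47.1 CPM to 67.2 and 62.5 CPM (log2 0.52, adjusted p = 0.00211). These were the 2 calls among 12 receptor and RAS feedback inhibitors, whose median of 0.10 was near that of all genes. RASD1, a RAS-like GTPase, rose from 7.34 and 7.97 CPM to 26.1 and 22.6 CPM (log2 1.67, SE 0.12, adjusted p = 1.69e-08). IRS2, the docking protein of the insulin receptor, rose from 24.3 and 27.6 CPM to 41.3 and 44.3 CPM (log2 0.72, adjusted p = 0.000162), the 1 call among 14 FOXO targets and insulin receptor feedback genes.

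RNA decay factors were represented by ZFP36 (log2 0.59) and ZFP36L1 (log2 0.36), which bind AU-rich elements, 2 calls among 8 genes of the ZFP36, BTG and TOB list. The pseudokinase TRIB1 rose by 0.59. PLK2 encodes a polo-like kinase and MCL1 an antiapoptotic relative of BCL2. PLK2 stood at 514 and 512 CPM with vehicle and 738 and 707 CPM with HRG (log2 0.49, adjusted p = 0.000782), and MCL1 at 488 and 492 CPM against 690 and 615 CPM (log2 0.41, adjusted p = 0.000688). The smallest changes called were those of AHR, the aryl hydrocarbon receptor (log2 0.32), and of SLC19A2, a thiamine transporter (log2 0.28, from 54.0 and 51.7 CPM to 64.2 and 64.4 CPM, adjusted p = 0.0489). The mitochondrial carrier SLC25A25, CPEB4, MYADM and NCOA7 rose by 0.34, 0.35, 0.54 and 0.97.

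INE1 was the exception in kind. This noncoding transcript was at 0.574 and 0.567 CPM with vehicle and 1.72 and 1.62 CPM with HRG (log2 1.54, SE 0.29, adjusted p = 0.0170), near its T0 level of 1.22 and 1.17 CPM. INE1 was not called by DESeq2. In RefSeq it overlaps UBA1 on chromosome X, which was at 657 and 666 CPM with vehicle and at 658 CPM in both HRG libraries (log2 -0.01, adjusted p = 1). In all, 13 of the 37 genes overlap another RefSeq gene, among them CCN2, NR4A1, IER3 and JUNB, and the strand setting of the counting is not given in the sources used here, so reads of such partners cannot be told apart.

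**Figure D2:**
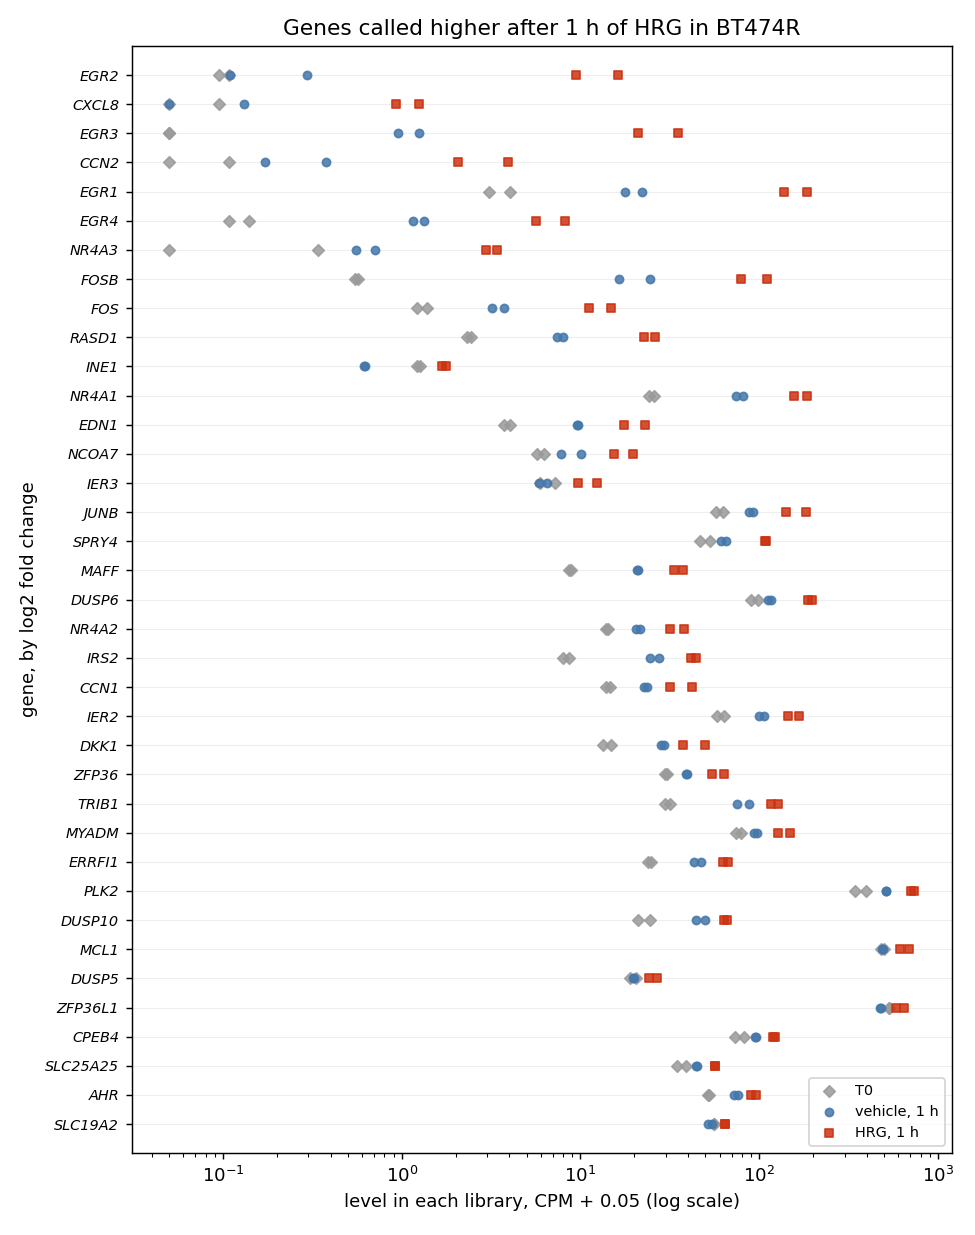
Level of each of the 37 called genes in each BT474R library at T0 and at 1 h with vehicle or HRG, in CPM plus 0.05 on a log axis, with genes ordered by log2 fold change. The 2 HRG squares stand to the right of the 2 vehicle circles for each gene, and for many genes the vehicle circles stand to the right of the T0 diamonds.

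Several lists held no called gene in HRG-BT474R. The 11 Kruppel-like zinc finger factors had a median of 0.09, with KLF6 at 0.29 (adjusted p = 0.174) and KLF2 at 0.28 (adjusted p = 0.827). SRF was at 65.0 and 67.7 CPM with vehicle and 87.1 and 78.4 CPM with HRG (log2 0.32, adjusted p = 0.0834), and the median of the 10 SRF and actin cytoskeleton genes tested was 0.02. The 4 ERBB receptors, with values between -0.04 and 0.24, had no call, and neither did the 9 ERBB ligands tested, where AREG (amphiregulin) was at 1.15 and 1.10 CPM with vehicle and 2.83 and 1.47 CPM with HRG (log2 0.95, adjusted p = 0.546). MYC was at 8.81 and 7.40 CPM against 11.2 and 10.3 CPM (log2 0.42, adjusted p = 1). The ID and inhibitory SMAD genes, the MYC network, the interferon response genes, the steroid receptors and luminal regulators, and the heat shock genes had medians of 0.08, 0.02, 0.00425, 0.00653 and -0.05 with no call. Of the lists not described above, 2 had 1 call each, MCL1 among 12 delayed early targets (median 0.21) and RASD1 among 8 cAMP and CREB responsive genes (median 0.22). The 13 protein-coding genes of the mitochondrial genome were not analysed here.

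No gene was called lower. The 10 with the smallest unadjusted p among genes of at least 1 CPM whose libraries did not overlap are given as values. GADD45A, a stress-induced growth arrest gene, was at 19.4 and 20.1 CPM with vehicle and 15.7 and 13.4 CPM with HRG (log2 -0.44, SE 0.10, adjusted p = 0.144). The arrestin-domain gene ARRDC3 was at 21.4 and 18.7 CPM against 14.5 and 15.1 CPM (log2 -0.44, SE 0.10, adjusted p = 0.152), down from 38.8 and 40.3 CPM at T0. NFKBIA, the inhibitor of NF-kB, was at 66.0 and 65.4 CPM against 53.8 and 55.6 CPM (log2 -0.26, adjusted p = 0.224). RBM20, ZNF296, GTSE1, PRR15L, ZP1, MAN1B1-DT and MIR4664 lay between -0.88 and -0.23, with adjusted p between 0.174 and 0.531.

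The 2 HRG libraries did not respond equally. In 32 of the 37 called genes the first HRG library was above the second, by a median ratio of 1.16, while the same ratio over 14737 genes of at least 1 CPM had a median of 1. With vehicle, the first library was the higher one in 14 of 37. Without the first HRG library 35 genes were called higher, 24 of them among the 41, and without the second 39, 35 of them among the 41. Without the first vehicle library the number fell to 24, and without the second it was 30. EGR1, EGR2, EGR3, EGR4, CCN2, FOS, FOSB, RASD1, NR4A1, NR4A2, EDN1, JUNB, SPRY4, DUSP6, IRS2, IER2, ZFP36, MYADM, PLK2 and MCL1, 20 of the 37, were called under each of the 12 alternatives, leaving out each library in turn included. CXCL8 and NR4A3 lost the call without the second vehicle library (adjusted p = 0.201 and 0.133). DKK1 was called under 7 of the 12 alternatives, and lost the call with copies summed, with the filterByExpr filter and without several single libraries (adjusted p up to 0.747). The calls of SLC19A2, SLC25A25 and INE1 were lost whichever 1 of the HRG and vehicle libraries was left out, and that of DUSP10 without several of them. DESeq2 did not call INE1 either.

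EGF was given to other BT474R cells for the same time, which allows the ligands to be set against each other. HRG and EGF at 1 h were compared directly, without the vehicle libraries, although the doses differed (10 and 50 ng/mL). No gene (0%) was called higher with HRG and 12 (0.0494%) were lower. At an unadjusted p under 0.05, 419 genes were higher and 267 lower. A share of about 0.05 would pass with no difference, so these counts alone show nothing further. DESeq2 called 0 higher and 13 lower. IRF1, an interferon-responsive transcription factor, was at 2.63 and 2.83 CPM with HRG and 14.8 and 11.0 CPM with EGF (log2 -2.24, SE 0.22, adjusted p = 1.58e-05), and at 1.97 and 3.55 CPM with vehicle. JUN was at 163 and 147 CPM with HRG and 301 and 315 CPM with EGF (log2 -0.99, SE 0.08, adjusted p = 3.87e-07). The Kruppel-like factors KLF2 and KLF6 were lower with HRG by log2 -0.77 and -0.68, DUSP1 by -0.76, the small GTPase RHOB by -0.49 and the ubiquitin ligase MYLIP by -0.37. None of these 7 genes was called between HRG and vehicle.

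The other 5 of the 12 had risen with HRG and stood higher still with EGF. EGR1 was at 185 and 137 CPM with HRG and 260 and 278 CPM with EGF (log2 -0.74, SE 0.12, adjusted p = 0.00786). RASD1 was at 26.1 and 22.6 CPM against 35.1 and 42.1 CPM (log2 -0.66, adjusted p = 0.00787). JUNB, ZFP36 and IER2 were lower by -0.51, -0.49 and -0.39. Over the 37 genes, the log2 difference of HRG from EGF had a median of -0.33. INE1 stood apart at 1.31, and the others ran from -0.88 for FOS to -0.0040 for DUSP5. EGR2, EGR3, CXCL8, CCN2 and DUSP6, with differences between -0.55 and -0.18, were not called between the ligands. EGR2, for example, was at 16.2 and 9.39 CPM with HRG and 15.1 and 17.8 CPM with EGF, and DUSP6 at 188 and 197 CPM against 221 and 224 CPM. Against the same vehicle libraries, EGF gave 101 genes higher (0.416%) and 10 lower (0.0412%). Because the EGF and HRG comparisons share those libraries, their overlap is not given. Leaving out the second HRG library lowered the 12 calls to 5, and leaving out either EGF library to 6 or 5.

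**Figure D3:**
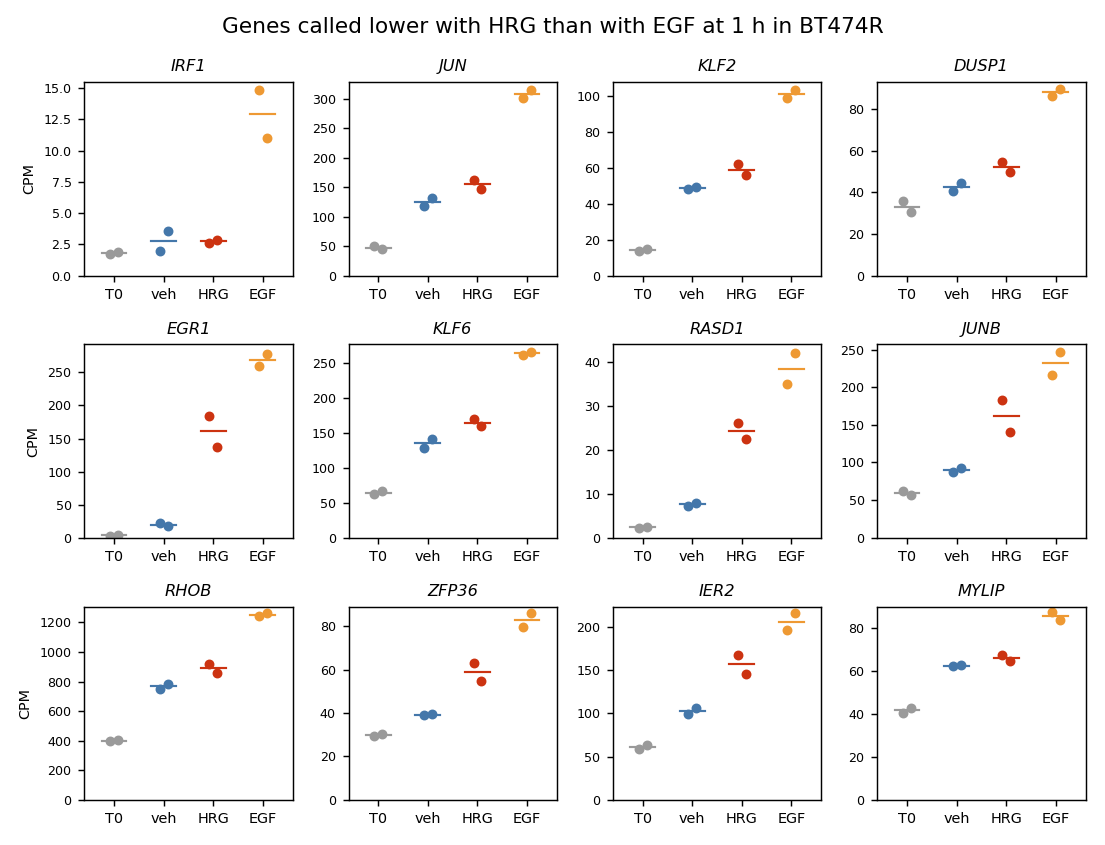
Level in CPM, from 0, of the 12 genes called lower with HRG than with EGF at 1 h in BT474R, with 1 point per library and a line at the mean of the 2 libraries of each group (T0, vehicle, HRG, EGF). The EGF points lie above the HRG points in each panel, as for JUN at 301 and 315 against 163 and 147 CPM.

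The parental line BT474 received the same HRG dose for the same time. There, 544 of 25146 genes tested were higher (2.16%) and 152 lower (0.604%). These libraries are distinct from those of BT474R. The spread between libraries of a group was larger in BT474R, with a common dispersion of 0.003 in its fit against 0.00121 in that of BT474. Numbers of calls in the 2 lines are therefore not on equal terms, and the part of the spread in them was not tested. Of the 544, 40 (7.35%) were also called higher in BT474R, which is 97.6% of the 41 BT474R calls. INE1 was the gene not called in BT474 (log2 0.10, adjusted p = 0.945). Of the 539 BT474 genes that were tested in BT474R, 477 (88.5%) had a log2 value above 0 there, against 51.7% of all genes tested, with a median of 0.13 in BT474R and 0.41 in BT474. Of the 151 genes lower in BT474 and tested in BT474R, 98 (64.9%) were below 0 in BT474R, against 48.1% of all genes, with medians of -0.06 and -0.49. A bulk library cannot tell fewer responding cells from less RNA per cell.

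The difference between the lines was tested directly as an interaction over 40 libraries. The log2 HRG effect, taken with its sign, was lower in BT474R for 122 genes (0.495%) and higher for 12 (0.0487%). A higher value can be a smaller drop, as for ARRDC3, at -0.44 in BT474R and -1.07 in BT474. Among the 37 genes called in BT474R the rise was smaller than in BT474 for 25 (67.6%) and larger for none, and their median log2 fold change was 0.76 in BT474R and 1.70 in BT474. The levels below are CPM on a scale common to both lines. FOS went from 3.81 and 3.25 CPM to 15.2 and 11.4 CPM in BT474R, and from 4.99 and 5.89 CPM to 139 and 136 CPM in BT474. The difference in log2 effect was -2.72 (SE 0.29, adjusted p = 5.24e-08). RASD1 went from 7.57 and 8.27 CPM to 27.0 and 23.2 CPM in BT474R, and from 2.93 and 1.72 CPM to 108 and 99.6 CPM in BT474 (difference -3.83, SE 0.19, adjusted p = 5.55e-17). CCN1 reached 43.5 and 32.6 CPM in BT474R against 322 and 313 CPM in BT474, from vehicle levels of 23.4 and 24.3 and of 32.7 and 32.2 CPM (difference -2.61, SE 0.12, adjusted p = 3.06e-17). JUN, without a call in BT474R, went from 127 and 106 CPM to 515 and 495 CPM in BT474 (difference -1.82, adjusted p = 1.56e-15).

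By list, 8 of the 10 AP-1 and related factors, 6 of the 10 DUSP phosphatases and 6 of the 10 SRF and actin genes had a lower log2 HRG effect in BT474R, and no gene of these lists had a higher one. In BT474, all 10 of the AP-1 list were called higher (median 2.17), 9 of the DUSP list (median 0.79, with 1 lower) and 7 of the SRF list (median 0.31), against 4, 3 and 0 in BT474R. Among the Kruppel-like factors 5 were called in BT474 and 0 in BT474R, and 3 differed between the lines. The receptor and RAS feedback list had 2 calls higher in each line and, in BT474, 1 lower (SOCS2, log2 -0.39), and ERRFI1 alone of its 12 genes differed (difference -0.70, SE 0.10, adjusted p = 1.32e-05). The 4 ERBB receptors had no call in either line. Over all genes tested, 0.495% had a lower effect in BT474R, and 2.16% were called higher in BT474 and 0.169% in BT474R. The lists were chosen with earlier results of these data known, so these counts only describe their members. The numbers of calls within each line depend also on its spread between libraries, which was larger in BT474R.

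For EGR2, EGR3, CXCL8, SPRY4 and DUSP6 the log2 effects were not called different, with differences of 0.39 (SE 0.67), 0.58 (SE 0.37), 0.46 (SE 0.99), 0.16 (SE 0.14) and 0.04 (SE 0.13). The value for CXCL8 rests on a vehicle level at the floor in BT474R (2 and 0 counts) and is not a measured size. Their levels nonetheless differed between the lines. EGR2 with HRG was at 16.8 and 9.65 CPM in BT474R and 201 and 186 CPM in BT474, where vehicle was at 3.07 and 2.56 CPM. EGR3 with HRG was at 36.1 and 21.6 CPM in BT474R and 403 and 378 CPM in BT474. DUSP6 went the other way, at 195 and 202 CPM with HRG in BT474R and 88.6 and 79.2 CPM in BT474, and with vehicle at 120 and 116 CPM against 49.8 and 52.9 CPM. SPRY4 was likewise higher in BT474R, at 113 and 111 CPM with HRG against 30.7 and 30.8 CPM. CCN2 showed a difference of -2.21 that did not pass (SE 0.62, adjusted p = 0.145) at HRG levels of 4.03 and 2.08 CPM in BT474R and 605 and 562 CPM in BT474. DESeq2, the unfiltered fit, the fit of the compared libraries alone and the fit without the first HRG library of BT474R each called it. In 9 of the 37 genes the mean HRG level was higher in BT474R than in BT474, and in 16 the mean vehicle level was. The receptors themselves differed in level between the lines with vehicle: EGFR was at 695 and 745 CPM in BT474R and 68.3 and 63.4 CPM in BT474, ERBB4 at 10.4 and 10.8 against 33.8 and 29.3 CPM, ERBB3 at 345 and 357 against 251 and 258 CPM, and ERBB2 at 9897 and 10070 against 7859 and 7946 CPM. The part of these levels in the response was not tested.

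**Figure D4:**
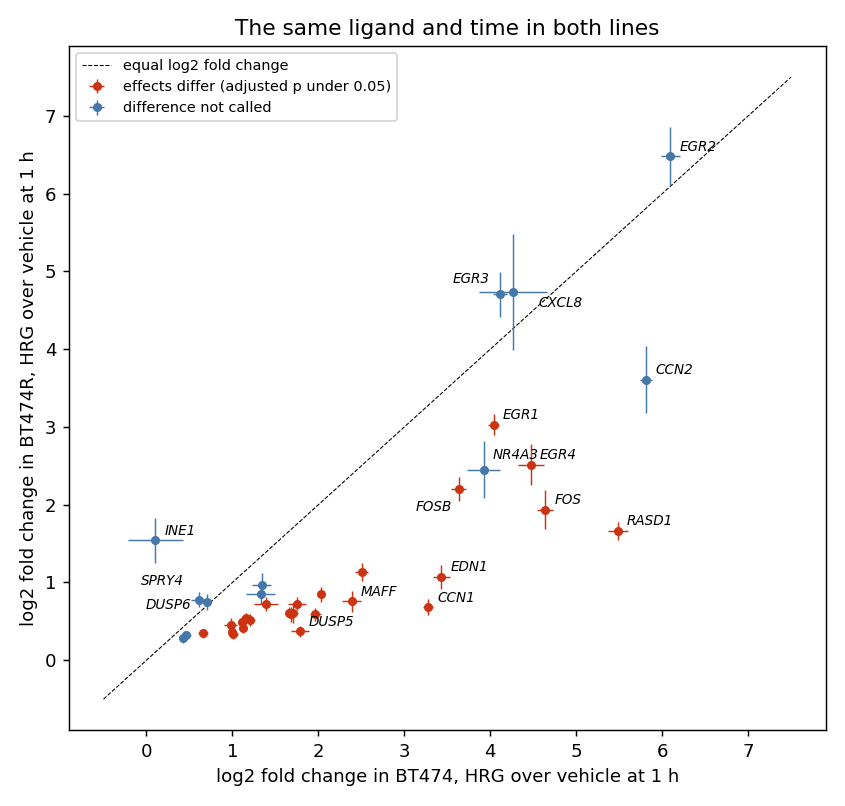
Log2 fold change of HRG over vehicle at 1 h in BT474 and in BT474R for the 37 genes called in BT474R, with bars of 1 SE in each direction and a dashed line where both lines would be equal. The 25 genes in red, whose effects differ by the interaction test, lie below the line, while EGR2, EGR3 and CXCL8 lie above it without a call, CXCL8 from a BT474R vehicle level of 2 and 0 counts.

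BT474R cells were also treated with HRG for 12 and 24 h, each with its own vehicle libraries, so these comparisons share no library with the 1 h comparison. At 12 h, 579 genes were higher (2.38%) and 421 lower (1.73%), and at 24 h 459 were higher (1.89%) and 216 lower (0.889%). Of the 37 early genes, 9 (24.3%) were higher at 12 h and 6 (16.2%) at 24 h, 5 of them at both, and 26 were called at neither time. Their median log2 fold change was 0.76 after 1 h, 0.19 after 12 h and 0.11 after 24 h. The 12 h calls were RASD1, IER3, SPRY4, MAFF, DUSP6, IRS2, ERRFI1, PLK2 and AHR, and between 8 and 9 of them were made when any 1 of the 12 h libraries was left out. DUSP6 was at 91.0 and 93.2 CPM with vehicle and 280 and 300 CPM with HRG at 12 h (log2 1.65, SE 0.10, adjusted p = 4.16e-09), a larger log2 fold change than its 0.75 at 1 h, though the change over time was not tested. SPRY4 was at 49.3 and 45.8 CPM against 104 and 105 CPM at 12 h (log2 1.14, SE 0.10, adjusted p = 2.06e-07). RASD1 was at 1.55 and 1.72 CPM against 3.15 and 3.58 CPM at 12 h (log2 1.03, adjusted p = 0.00208).

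At 24 h the calls were IER3, SPRY4, MAFF, DUSP6, DUSP5 and AHR, and 1 early gene, EGR1, was called lower. EGR1 was then at 5.78 and 4.38 CPM with vehicle and 2.70 and 1.93 CPM with HRG (log2 -1.15, SE 0.27, adjusted p = 0.0229). These calls turned on single libraries: without the first 24 h vehicle library 2 of the 37 were called (DUSP6 and SPRY4), and without the first 24 h HRG library 9 were, and EGR1 was not called lower without the first vehicle or the second HRG library. CCN2 was at 0 counts in both vehicle and both HRG libraries at 12 h, and EGR2 lay between 0 and 0.129 CPM in them. DUSP6, SPRY4, IER3, MAFF and AHR were called higher at each of the 3 times. Among them, DUSP6 and SPRY4 alone kept the 1 h call under each of the 12 alternatives. The 4 EGR genes, FOS, FOSB, CCN1, CCN2 and CXCL8 were called higher at 1 h but not at 12 or 24 h.

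**Figure D5:**
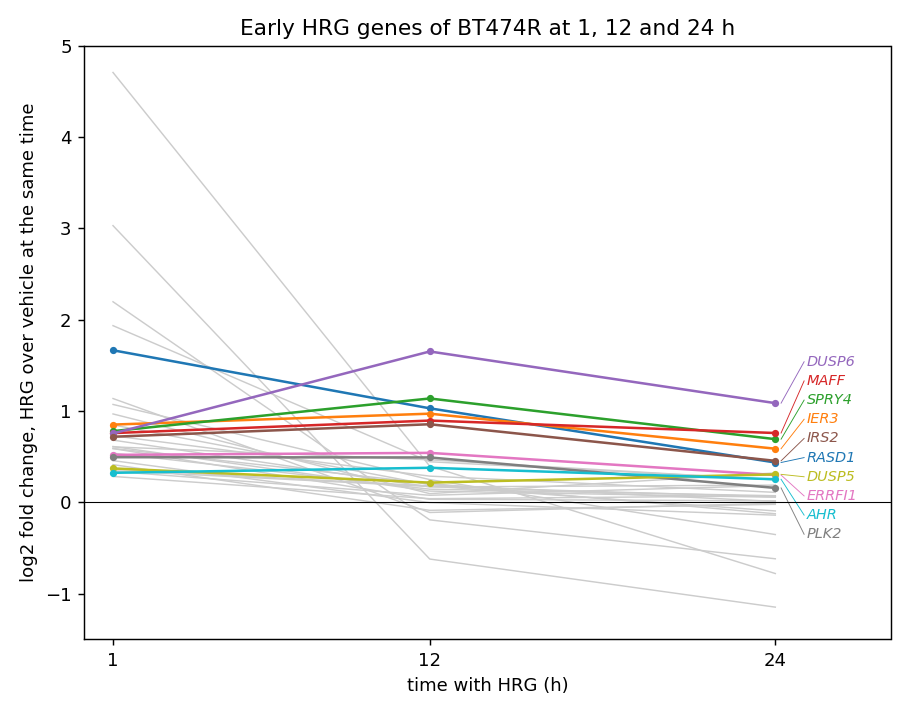
Log2 fold change of HRG over the vehicle of the same time at 1, 12 and 24 h in BT474R, for genes called higher at 1 h. The 10 coloured genes were also called higher at 12 or 24 h, with DUSP6 at 0.75, 1.65 and 1.09, and grey lines show the other early genes of at least 10 CPM in both HRG libraries at 1 h, most of which return towards 0.

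The vehicle libraries at 1 h had themselves left the T0 state. Against T0, 277 genes were higher (1.14%) and 267 lower (1.1%) after 1 h in fresh medium with water. EGR1 was at 3.01 and 3.97 CPM at T0, 22.0 and 17.7 CPM with vehicle and 185 and 137 CPM with HRG. FOSB was at 0.522 and 0.496 CPM at T0, 16.4 and 24.4 CPM with vehicle and 110 and 78.6 CPM with HRG. EGR3, with no count at T0, was at 0.902 and 1.19 CPM with vehicle, and IRS2 was at 8.52 and 7.90 CPM at T0 and 24.3 and 27.6 CPM with vehicle. Not all called genes moved this way: MCL1, ZFP36L1, DUSP5 and SLC19A2 had log2 values between -0.15 and 0.01 from T0 to vehicle, none of them called. These genes are examples, and no share of the 37 is given because both comparisons use the same vehicle libraries. The HRG values above are therefore relative to cells that had received fresh medium, and this comparison shares the vehicle libraries with them.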

How the data were processed

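Poly(A) RNA-seq of 40 libraries was deposited as 1 table of raw read counts per gene (44584 names, of which 5078 carry a numbered suffix and were treated as copies). Per the labels and the study's methods, the authors trimmed paired reads with Trim Galore (version 0.6.6) and counted them with featureCounts against GRCh38.p13. Which annotation release was used, whether strand was counted and how multi-mapped reads were handled are not given in the sources used here.

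The comparison, the gene lists and the markers were chosen with earlier results of these data known. Counts as deposited were fitted in R (4.3.3) with edgeR (4.0.16), in 1 quasi-likelihood fit over the 20 libraries of each line, with TMM scaling and 1 coefficient per group. Genes with at least 1 count in 50% of the libraries were tested. The difference between lines came from a fit of 40 libraries. The standard error was taken as the log2 fold change divided by the square root of the F statistic, and p-values were adjusted over all genes tested (threshold 0.05). Genes named were those called, the 10 lower genes given as values, the list members the text turns on, and a few chosen after their values had been seen (UBA1, NCOA7 in the promoter account, and the receptors by level in both lines).

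Replicates of each group differed by more than counting noise (median chi-square of a gene 0.724 for vehicle and 1.18 for HRG at 1 h in BT474R, against 0.455 for counting noise alone), so none was merged. The method was tested on simulated counts. Alternatives were DESeq2 (1.42.0), its size factors, other filters, summed copies, other sets of libraries, a replicate block and leaving out each library. Floors of 3 counts cover counting error only.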

Additional observations from a re-analysis of the deposited data

Results flagged for a closer look

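The results below were picked out because the effect of HRG at 1 h differed between BT474R and BT474 in edgeR's test of the difference itself, at an adjusted p under 0.05 over 24641 genes. Only the 37 called genes and a set of other genes named above were considered. They are therefore a part of the 122 genes with a lower effect in BT474R and the 12 with a higher one. Values are the log2 effect in BT474R minus that in BT474, with 2 libraries per group in each line.

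Among the transcription factors the difference was -2.72 for FOS, -2.41 for ATF3, -1.97 for EGR4, -1.82 for JUN, -1.64 for MAFF, -1.45 for FOSB, -1.20 for JUNB and -1.02 for EGR1. NR4A1 and NR4A2 differed by -1.38 and -1.04, KLF6 and KLF2 by -1.01 and -0.89, MYC by -0.85 and SRF by -0.81. ATF3, JUN, KLF2, KLF6, MYC and SRF were not called in BT474R.

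Genes of secreted proteins and ligands differed by -2.61 (CCN1), -2.37 (EDN1), -2.10 (AREG), -1.18 (THBS1) and -1.11 (DKK1). Genes of signaling proteins differed by -3.83 (RASD1), -1.57 (DUSP1), -1.43 (DUSP5), -1.11 (TRIB1), -0.70 (ERRFI1), -0.69 (IRS2), -0.54 (DUSP10) and -0.49 (RHOB).

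The RNA-binding proteins ZFP36, ZFP36L1 and CPEB4 differed by -1.39, -0.65 and -0.33. IER2, MCL1, SLC25A25, PLK2 and MYADM differed by -1.07, -0.72, -0.68, -0.64 and -0.63. Of the genes given here, ARRDC3 alone had a positive difference, 0.62, its log2 value being -0.44 in BT474R and -1.07 in BT474. Among the 37 genes called in BT474R, the calls of EGR4, IRS2, DUSP10 and CPEB4 were lost without 1 or more single libraries. The genes given here that were not called in BT474R, ARRDC3 among them, were not checked gene by gene in this way.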

How the results depend on the processing

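Among the 37 called genes, no log2 fold change of HRG over vehicle in BT474R turned its sign under any of the 12 alternatives. The calls in that comparison were 41 higher and 0 lower. They became 63 and 5 with both lines in 1 fit, 142 and 9 without a filter on low counts, and 111 and 10 with the compared libraries alone, whose spread is estimated from 4 libraries. DESeq2 gave 49 and 1. Leaving out 1 library gave 24 to 39 higher and 0 lower. HRG against EGF (0 higher, 12 lower) became 1 and 21 with both lines in 1 fit, 12 and 36 without the filter, and 5 to 12 lower without 1 library. The difference between lines (12 higher, 122 lower) became 63 higher without the filter and 60 with the compared libraries alone, and ranged over 2 to 35 higher and 72 to 118 lower without 1 library.

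In BT474 the 152 lower calls became 79 with DESeq2, 267 without the filter and 56 to 76 without 1 library. Without the filter, EGF gave 195 higher and 31 lower, HRG 1104 higher at 12 h and 464 lower at 24 h, and vehicle against T0 489 lower. Without 1 library the ranges were 60 to 68 higher and 2 to 6 lower for EGF, 282 to 406 and 97 to 190 for HRG at 12 h, 46 to 1266 and 61 to 1041 at 24 h, and 105 to 160 and 58 to 121 for vehicle against T0. The causes were not tested.

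Some signs turned. HRG against EGF ranged, without 1 library, from -0.75 to 0.21 for CCN2, -0.74 to 0.0075 for EGR3, -0.54 to 0.016 for EGR4 and -0.22 to 0.025 for MYADM, the ends being the fits without the first and the second HRG library. DUSP5 ranged from -0.082 to 0.070 and was at 0.0024 without the filter, and CPEB4 from -0.050 to 0.026. Against vehicle, IRF1 ranged from -0.38 to 0.49. The difference between lines ranged from -0.40 to 1.52 for EGR2, from -0.65 to 3.48 for CXCL8 and from -0.051 to 0.12 for DUSP6. None of these differences was called in the report.

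The labels do not say that libraries of the same number belong together, and the deviations of same-numbered vehicle and HRG libraries did not correlate (r = -0.02 over 14737 genes). With the replicate block the calls were 47 higher (41 of them shared) and 0 lower, 0 and 13 against EGF, and 17 and 126 for the difference between lines, and no count moved by more than 1.5 times.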
